A study of Homo sapiens with 12 samples.

Results

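The miR-200 family was measured as all table lines of 5 hairpins, mir-200a, mir-200b, mir-200c, mir-141 and mir-429. These gave 8 of 1409 lines and 5 of 978 hairpins. The 8 lines held 2256 reads over 12 libraries. Small RNAs came from a DROSHA knockout of HCT116, an established cell line of human colorectal carcinoma. All 12 libraries also received 4.5 µg of the plasmid pXC-NLS-DG4. The second plasmid, of the pCK series, was empty, or carried wild-type DROSHA, the DROSHA mutant m4 or a DROSHA mutant with the belt deleted. Each of these 4 groups had 3 libraries. DROSHA plasmids were given at 4.5 µg, and the amount of empty plasmid is not stated in the labels. What m4 alters and what DG4 codes for are not stated in the labels either. The repeats are numbered, but nothing says that they were separate cultures, so p-values measure the spread between these samples, which may be technical.

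DROSHA, an RNase III enzyme of the nucleus, releases most miRNA hairpins from their primary transcripts, and DICER then cuts these into a 5p and a 3p arm. The miR-200 family is abundant in epithelium, where its 3p arms repress ZEB1 and ZEB2, transcription factors that shut down E-cadherin and drive epithelial-mesenchymal transition. ZEB1 and ZEB2 in turn repress the miR-200 promoters.

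The mature sequences are shown because the family is divided by its seed, bases 2 to 8, which are in capitals. All are from RefSeq (GRCh38.p14), where 7 of the 8 member names were matched.
hsa-miR-200b-3p: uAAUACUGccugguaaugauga
hsa-miR-200c-3p: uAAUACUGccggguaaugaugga
hsa-miR-429: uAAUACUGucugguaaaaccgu
hsa-miR-200a-3p: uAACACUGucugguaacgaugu
hsa-miR-141-3p: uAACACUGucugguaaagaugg
hsa-miR-200a-5p: cAUCUUACcggacagugcugga
hsa-miR-200b-5p: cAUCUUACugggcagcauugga
miR-200b-3p, miR-200c-3p and miR-429 share the seed AAUACUG, and miR-200a-3p and miR-141-3p share AACACUG. Over the 2370 mature names of the RefSeq table no other name has either seed. Counted from the 5′ end, miR-200a-3p differs from miR-200b-3p inside the seed by C4U. miR-200b-3p and miR-200c-3p differ over 22 compared bases by U11G and A22G. miR-141-3p and miR-200a-3p differ by A17C and G22U. How the authors' counting assigned reads that fit more than 1 of these close sequences is not given in the sources used here.

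The hairpins of miR-200b and miR-200c are shown because the ratio of their 3p arms differed between groups, and capitals mark the mature arms.
hsa-mir-200b: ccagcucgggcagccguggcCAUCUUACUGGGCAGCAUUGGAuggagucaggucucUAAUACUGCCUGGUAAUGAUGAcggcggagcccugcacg
hsa-mir-200c: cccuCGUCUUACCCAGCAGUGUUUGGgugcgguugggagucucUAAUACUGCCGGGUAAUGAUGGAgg
On GRCh38, MIR200B lies at chr1:1167104-1167198, MIR200A at chr1:1167863-1167952 and MIR429 at chr1:1169005-1169087, all on the plus strand. These 3 hairpins span 1984 bp, and no other annotated gene overlaps them. MIR200C lies at chr12:6963699-6963766 and MIR141 at chr12:6964097-6964191, on the plus strand. These 2 hairpins span 493 bp, and both lie within an intron of the host transcript MIR200CHG.

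The family was a small part of every library. Libraries held 101887 to 332081 miRNA reads after duplicate lines were collapsed, and 118 to 294 of these were of the family, or 0.0482% to 0.236%. miR-200c-3p had 885 reads in all 12 libraries together, miR-200b-3p 707, miR-200a-3p 306, miR-200a-5p 185, miR-429 126, miR-141-3p 24, miR-200b-5p 21 and miR-141-5p 2. The chromosome 1 cluster thus gave 1345 reads and the chromosome 12 cluster 911. Of the 8 lines, 5 had reads in every library and passed the filter on low counts (miR-200a-3p, miR-200a-5p, miR-200b-3p, miR-200c-3p and miR-429). The other 3 were not tested. Among the lines of the 5 hairpins there was none for miR-200c-5p.

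Because DROSHA acts on most hairpins at once, reads were divided by a size factor taken from 5 features that mature without it (miR-877, miR-1224, miR-1226, miR-484 and miR-320, the last summed over its copies). The result is called scaled reads. These reference hairpins took 79.3% to 83.8% of the reads in the empty-plasmid libraries and 28.6% to 48.0% in the wild-type ones. Their share was 57.4% to 75.8% for m4 and 36.7% to 46.1% for the belt deletion. The 5 features of the size factor did not move as one. Scaled log2 differences for m4 against empty plasmid ran from -0.54 for miR-320 to 0.42 for miR-1226. For wild type they ran from -0.38 for miR-320 to 0.39 for miR-1226. The belt deletion had the lowest value, with a range from -0.67 for miR-484 to 0.41 for miR-1224. The denominator therefore decides several of the results below, and each arm's calls are given with those under other library sizes.

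miR-200b-3p was called higher than with the empty plasmid for each form of DROSHA, as was miR-200a-5p. Its scaled reads were 32.3, 22.3 and 25.2 with the empty plasmid and 96.3, 68.4 and 53.0 with wild type (replicates 1, 2 and 3 in order throughout). They were 62.2, 95.2 and 101 with m4 and 43.1, 123 and 34.98 with the belt deletion. All 9 libraries with a DROSHA plasmid lay above all 3 with the empty plasmid. Relative to the empty plasmid the log2 fold change was 1.44 (SE 0.40, edgeR adjusted p = 0.0016) with wild type. It was 1.69 (SE 0.40, edgeR adjusted p = 0.0004) with m4. It was 1.32 (SE 0.40, edgeR adjusted p = 0.0044) with the belt deletion, where replicate 2 stood apart and the log2 change without it was 0.56 (edgeR adjusted p = 0.369). These comparisons share the 3 empty-plasmid libraries. With TMM library sizes the wild-type value was 0.64 (edgeR adjusted p = 0.0882), with total reads 0.63 (0.173) and with DESeq2 size factors 0.78 (0.0447). For the belt deletion they gave 0.44, 0.53 and 0.57, none of them called, while the m4 call held under each of these sizes (1.25, 1.90 and 1.21).

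miR-200c-3p, the most abundant member, has the same seed but comes from the other cluster. Its scaled reads were 51.9, 45.2 and 39.2 with the empty plasmid and 67.8, 73.8 and 49.6 with wild type. They were 95.5, 104 and 123 with m4 and 53.7, 163 and 52.9 with the belt deletion. The empty-plasmid and wild-type libraries overlapped, while each m4 library lay above every wild-type one. The log2 change against the empty plasmid was 0.48 (SE 0.38, edgeR adjusted p = 0.341) with wild type. With m4 miR-200c-3p rose by 1.24 (SE 0.38, edgeR adjusted p = 0.0054). The change of 0.97 (SE 0.38, edgeR adjusted p = 0.0286) with the belt deletion was 0.23 without its replicate 2 (edgeR adjusted p = 0.774). It was not called either without empty-plasmid replicate 2 or 3 (edgeR adjusted p = 0.0748 and 0.115), nor with TMM (log2 value 0.09), total reads (0.17) or DESeq2 size factors (0.22). The m4 value was 0.80 with TMM (edgeR adjusted p = 0.0440), 1.47 with total reads (0.0021) and 0.77 with DESeq2 size factors (0.0559, not called). Between m4 and wild type the log2 difference was 0.75 (SE 0.38, edgeR adjusted p = 0.109), which did not pass the threshold.

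**Figure D1:**
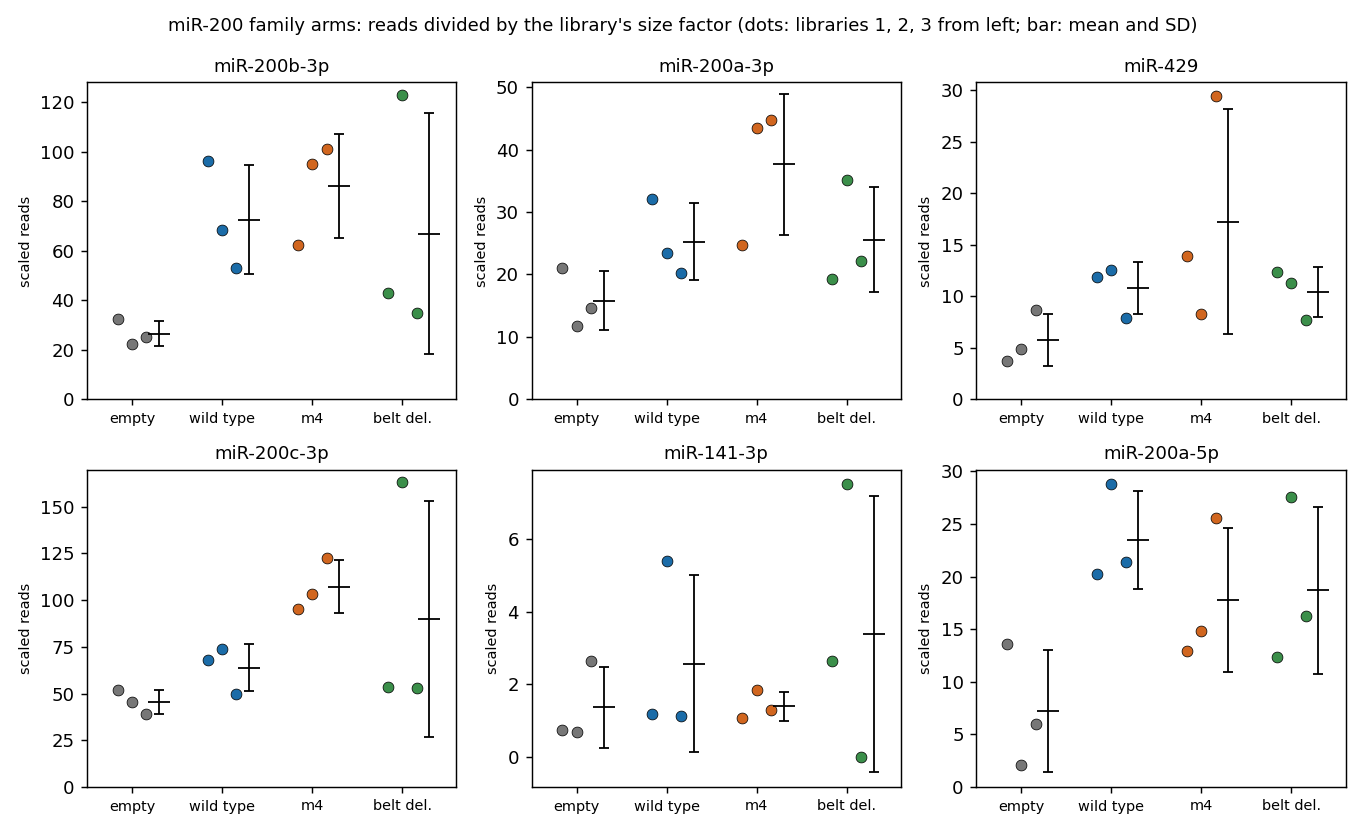
Scaled reads (y axis, linear) of 6 miR-200 arms in each library (dots) of the 4 groups (x axis), with the mean and SD of 3 libraries beside them. For miR-200b-3p every dot with a DROSHA plasmid lies above the empty-plasmid dots, and the belt deletion's highest dot is its replicate 2 in miR-200b-3p, miR-200c-3p, miR-200a-3p, miR-141-3p and miR-200a-5p.

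miR-200a has a seed that differs from that of miR-200b by 1 base, and it lies in the same cluster. The scaled reads of miR-200a-3p were 21.1, 11.8 and 14.6 with the empty plasmid and 32.1, 23.4 and 20.3 with wild type. They were 24.7, 43.4 and 44.8 with m4 and 19.4, 35.1 and 22.2 with the belt deletion. Only the m4 libraries lay clear of the empty-plasmid ones. miR-200a-3p rose with m4 by 1.25 log2 units (SE 0.41, edgeR adjusted p = 0.0097, and 0.0699 without empty-plasmid replicate 2). That value was 0.80 with TMM (edgeR adjusted p = 0.0611), 0.76 with DESeq2 size factors (0.0774) and 1.44 with total reads (0.0021). Its values were 0.68 (SE 0.42, edgeR adjusted p = 0.214) with wild type and 0.67 (SE 0.42, edgeR adjusted p = 0.218) with the belt deletion.

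The opposite arm of the same hairpin, miR-200a-5p, was at 13.5, 2.1 and 6.0 scaled reads with the empty plasmid and 20.2, 28.8 and 21.4 with wild type. It was at 12.9, 14.8 and 25.6 with m4 and 12.3, 27.6 and 16.2 with the belt deletion. The wild-type libraries lay above the empty-plasmid ones, and the libraries of both mutants overlapped them. The log2 change was 1.69 (SE 0.50, edgeR adjusted p = 0.0031) with wild type, 1.29 (SE 0.51, edgeR adjusted p = 0.0327) with m4 and 1.35 (SE 0.50, edgeR adjusted p = 0.0208) with the belt deletion. Empty-plasmid replicate 2 had 3 reads of this arm, and without that library the change was 1.26 with wild type (edgeR adjusted p = 0.0606), 0.85 with m4 (0.266) and 0.94 with the belt deletion (0.204). The mutants' calls were also lost without empty-plasmid replicate 3 (edgeR adjusted p = 0.120 for m4 and 0.0907 for the belt deletion). They were lost too without m4 replicate 3 (edgeR adjusted p = 0.204) and without belt deletion replicate 2 (edgeR adjusted p = 0.187), each for its own mutant. In the same order of comparisons, TMM library sizes gave 0.93, 0.86 and 0.57, none of them called. DESeq2 size factors gave 1.06, 0.81 and 0.70, none called, and total reads 0.95, 1.56 and 0.63, of which only that for m4 was called (edgeR adjusted p = 0.0129).

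miR-429, from the remaining hairpin of the chromosome 1 cluster, was at 3.8, 4.9 and 8.6 scaled reads with the empty plasmid and 11.9, 12.6 and 7.9 with wild type. It was at 13.95, 8.3 and 29.4 with m4 and 12.3, 11.3 and 7.7 with the belt deletion. Every group overlapped the empty-plasmid libraries. The change of 1.52 log2 units with m4 passed the test (SE 0.55, edgeR adjusted p = 0.0195), but not without m4 replicate 3 (0.90, edgeR adjusted p = 0.3004), nor without empty-plasmid replicate 1 or 2 (edgeR adjusted p = 0.0911 and 0.0795). It was 1.07 with TMM (edgeR adjusted p = 0.0988), 1.02 with DESeq2 size factors (0.118) and 1.80 with total reads (0.0084). The values were 0.86 (SE 0.59, edgeR adjusted p = 0.263) with wild type and 0.82 (SE 0.57, edgeR adjusted p = 0.283) with the belt deletion.

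miR-141-3p, processed from the hairpin next to mir-200c, was near the limit of detection. It had 1, 1 and 4 reads in the empty-plasmid libraries and 1, 3 and 1 in the wild-type ones. The m4 libraries had 1, 2 and 1, and the belt-deletion libraries 3, 6 and 0. The groups overlapped, and a difference was not detectable at this depth. The 0 in belt deletion replicate 3 allows up to 9.03 RPM, reads for each 1000000 miRNA reads (3 reads in 332081, counting error only). miR-200b-5p had 0 to 4 reads per library, and miR-141-5p had 1 read in each of 2 libraries.

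Over the 5 tested arms, 2 rose with wild type (miR-200a-5p and miR-200b-3p), where 42.6% of the 310 tested miRNAs were called higher. All 5 rose with m4, where 41.0% were called higher, and 3 rose with the belt deletion (miR-200a-5p, miR-200b-3p and miR-200c-3p), where 42.9% were. None was called lower. The median log2 change of the 5 was 0.86 for wild type, 1.29 for m4 and 0.97 for the belt deletion. Over all 310 tested miRNAs the medians were 0.72, 0.83 and 0.73.

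None of the 5 arms was called between the DROSHA forms by edgeR, and none had an unadjusted p under 0.05. DESeq2 with the same size factors also called 0. Of all tested miRNAs, 37.7% were called between m4 and wild type (11 higher with m4 and 106 lower), 12.6% between belt deletion and wild type and 27.1% between belt deletion and m4. For m4 against wild type the log2 values were 0.25 for miR-200b-3p, 0.57 for miR-200a-3p, -0.40 for miR-200a-5p, 0.66 for miR-429 and 0.75 for miR-200c-3p. Their median of 0.57 stood beside -0.19 over all tested miRNAs. For belt deletion against wild type the values ran from -0.34 for miR-200a-5p to 0.49 for miR-200c-3p. For belt deletion against m4 they ran from -0.69 for miR-429 to 0.07 for miR-200a-5p.

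The calls depended on the library sizes. With TMM factors, which assume that most miRNAs do not change, the median of all miRNAs moved by -0.78 for wild type against empty plasmid and by -0.43 for m4 against empty plasmid. The calls over all miRNAs for wild type then went from 132 higher and 2 lower to 125 higher and 88 lower. Under TMM no arm was called with wild type or the belt deletion against the empty plasmid. miR-200b-3p and miR-200c-3p were called higher with m4, and miR-200a-3p and miR-200c-3p were called higher with m4 than with wild type. Of all 310 tested miRNAs, TMM called 98 higher and 12 lower with m4 than with the empty plasmid. Between m4 and wild type it called 54 higher and 92 lower with m4. With total reads as library sizes all 5 arms were called higher with m4 than with the empty plasmid. None was called with wild type or the belt deletion against the empty plasmid. Between m4 and wild type, 4 (all but miR-200a-5p) were called higher with m4. Of all 310 tested miRNAs, total reads called 144 higher and 3 lower with m4 than with the empty plasmid. In that setting 133 of all tested miRNAs were higher and 60 lower with m4 than with wild type. Under all 5 library sizes run, each of the 5 arms had a positive value for m4 against empty plasmid. For wild type against empty plasmid miR-200c-3p turned from 0.48 to -0.32 under TMM, -0.18 with DESeq2 size factors and -0.34 with total reads, none of them called.

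**Figure D2:**
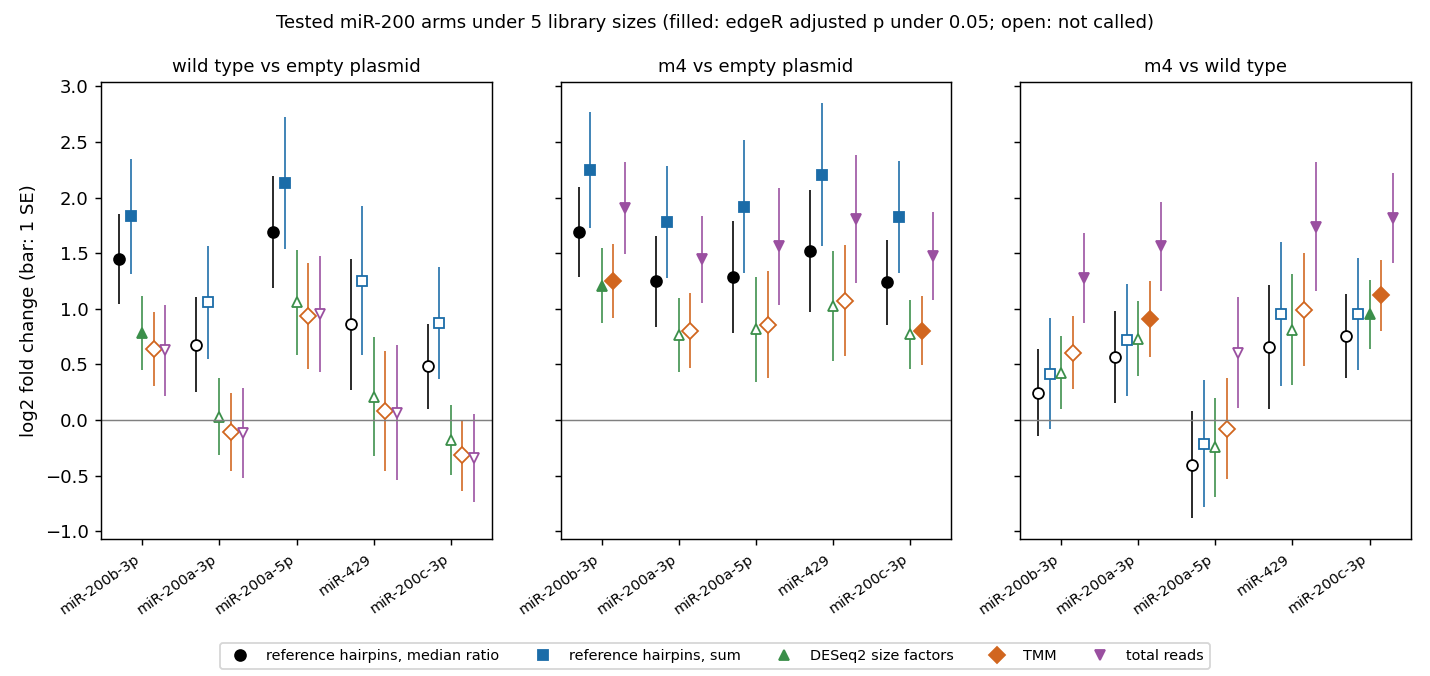
Log2 fold change (y axis, bars 1 SE) of the 5 tested arms (x axis) in 3 comparisons under 5 library sizes (colours and shapes), with filled symbols for an edgeR adjusted p under 0.05. For m4 against empty plasmid all symbols lie above 0, and for wild type those of miR-200a-3p and miR-200c-3p lie on both sides of 0.

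The summed reads of the 8 lines showed the same dependence. As scaled reads the sum was 103 ± 19.7 for the empty plasmid and 201 ± 38.4 for wild type (SD, n = 3). It was 269 ± 57.5 for m4 and 217 ± 131 for the belt deletion. The sum was 1.95-fold higher with wild type, 2.61-fold with m4 and 1.92-fold with the belt deletion than with the empty plasmid, without overlap of the libraries. Among tested miRNAs, 46.5% had all 3 wild-type libraries above all 3 empty-plasmid ones, 45.2% had this for m4 and 46.5% for the belt deletion. m4 and wild type overlapped in this sum, with a 1.34-fold difference.

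In RPM the sum was 604 ± 69.1 for the empty plasmid and 671 ± 18.8 for wild type (SD, n = 3). It was 1868 ± 528 for m4 and 741 ± 420 for the belt deletion. The m4 libraries, at 1310 to 2360, lay above all other libraries, while wild type and empty plasmid overlapped. The difference was 3.02-fold for m4 against empty plasmid and 2.71-fold for m4 against wild type. On this scale 49.4% of tested miRNAs had all 3 m4 libraries above all 3 empty-plasmid ones, and 35.5% had them above all 3 wild-type ones. As scaled reads 8.39% had all 3 m4 libraries above the wild-type ones, and of the 5 tested arms this was so for miR-200c-3p.

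Another denominator, the reads of all miRNAs outside the reference hairpins, gives the share of the family among the DROSHA-dependent and other miRNAs. It was chosen after the data had been seen. Per 1000000 of those reads the sum was 3227 ± 27.5 for the empty plasmid and 1077 ± 155 for wild type (SD, n = 3). It was 5455 ± 69.9 for m4 and 1230 ± 613 for the belt deletion. On this scale the family was 3.02-fold lower with wild type than with the empty plasmid, and 5.10-fold higher with m4 than with wild type, with no overlap. The denominator itself changed, as the reference hairpins took on average 81.3% of reads with the empty plasmid, 36.7% with wild type and 65.8% with m4. How many of all tested miRNAs also separated on this scale was not counted, so the separation is not shown to be particular to the family. The family thus stood higher with wild type than with the empty plasmid relative to the reference hairpins and lower relative to all other miRNAs, and m4 stood above the empty plasmid on each of the 3 scales.

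**Figure D3:**
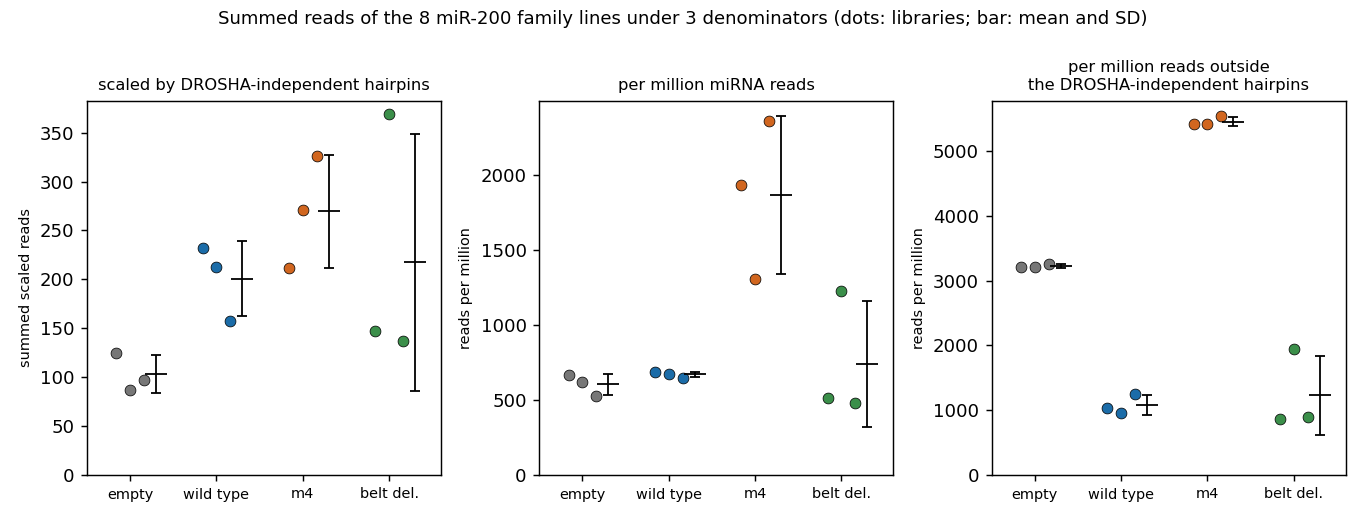
Summed reads of the 8 family lines (y axes, linear from 0) in each library (dots) of the 4 groups (x axis), with the mean and SD of 3 libraries, under 3 denominators. The wild-type libraries lie above the empty-plasmid ones in the left panel, overlap them in the middle panel and lie below them in the right panel, while the m4 libraries lie above the empty-plasmid ones in all 3.

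Belt deletion replicate 2 stood apart from the other libraries of its group. It held 294 family reads, or 1226.4 RPM, against 516 and 482 RPM in replicates 1 and 3. Its miR-200c-3p was at 542 RPM against 188 and 187, and its miR-200b-3p at 409 against 151 and 123. Without it, no arm was called between the belt deletion and the empty plasmid, and miR-200b-3p was called lower with the belt deletion than with m4 (log2 -1.15, edgeR adjusted p = 0.0401).

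Ratios between members need no library size, and 5 of them were compared. The ratio of miR-200b-3p to miR-200c-3p, arms with 1 seed from 2 clusters, differed between the 4 groups (exact permutation test over 15400 arrangements of the libraries, p = 0.00305, adjusted over the 5 ratios 0.0153). The reads of miR-200b-3p per read of miR-200c-3p were 0.623, 0.492 and 0.644 with the empty plasmid and 1.42, 0.927 and 1.07 with wild type. They were 0.652, 0.920 and 0.823 with m4 and 0.803, 0.754 and 0.661 with the belt deletion. The wild-type libraries were the highest and the empty-plasmid ones the lowest of the 4 groups, and these mean log2 ratios were 0.16 ± 0.31 and -0.77 ± 0.21 (SD, n = 3). The means for m4, -0.34 ± 0.25, and the belt deletion, -0.44 ± 0.14, lay between them and overlapped each other. The result was lost without empty-plasmid replicate 2 (exact permutation, adjusted p = 0.0782) and without wild-type replicate 1 (exact permutation, adjusted p = 0.0945). Permuted within the replicate number it had an exact p of 0.0174 (adjusted 0.0868).

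The same shift is seen in the make-up of the family's 3p reads. miR-200b-3p made up 27.9% ± 1.61 of them in empty-plasmid libraries and 41.1% ± 4.47 in wild-type ones (SD, n = 3). It made up 34.3% ± 3.14 for m4 and 32.9% ± 3.23 for the belt deletion. The share of miR-200c-3p was 48.0% ± 4.99, 36.7% ± 3.98, 43.5% ± 4.24 and 44.6% ± 3.53 in the same order. Arms with the AAUACUG seed together made up 80.1% to 87.5% of the 3p reads in every library, with group means of 82.1% to 84.5%.

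Within the chromosome 1 cluster, miR-200b-3p had 1.54, 1.88 and 1.73 reads per read of miR-200a-3p with the empty plasmid and 3.00, 2.92 and 2.61 with wild type. With m4 it had 2.52, 2.19 and 2.26, and with the belt deletion 2.23, 3.50 and 1.58. The ratio did not pass the test across groups (exact permutation p = 0.116, adjusted 0.289), but it did when belt deletion replicate 2 or replicate 3 was left out (exact permutation, adjusted p = 0.0221 and 0.0284). The other 3 ratios did not pass either, with exact permutation p = 0.554 for miR-200c-3p to miR-141-3p, 0.972 for miR-429 to miR-200a-3p and 0.740 for miR-200a-3p to miR-141-3p. Ratios to miR-141-3p rest on its 24 reads.

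**Figure D4:**
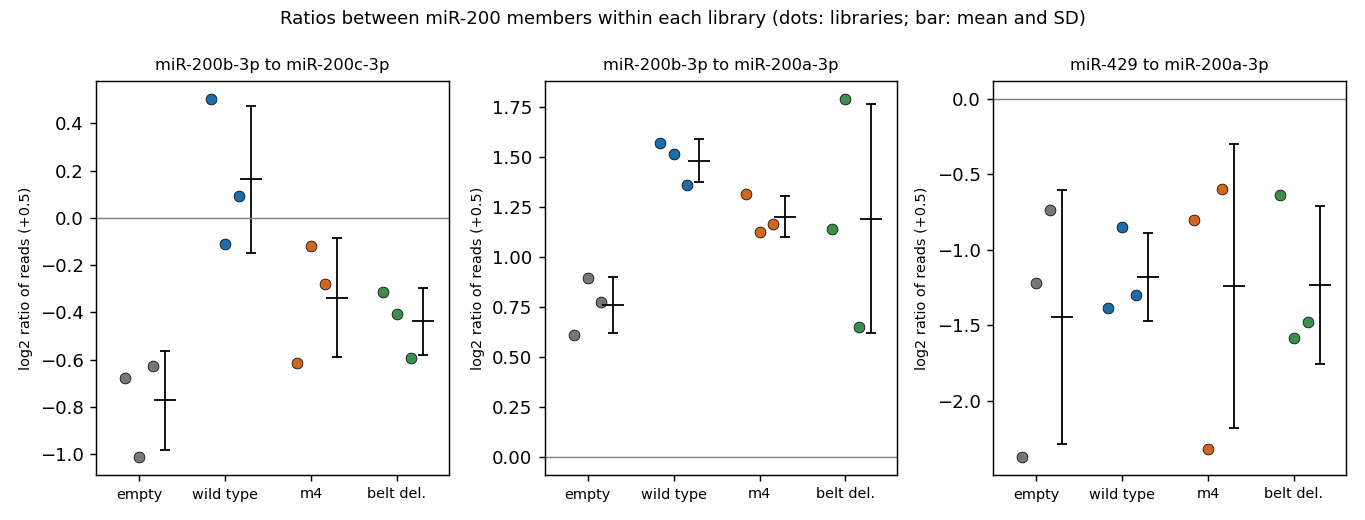
Log2 ratio of reads, with 0.5 added to each (y axis), for 3 pairs of arms in each library (dots) of the 4 groups (x axis), with the mean and SD of 3 libraries. The ratio of miR-200b-3p to miR-200c-3p runs from -1.01 in an empty-plasmid library to 0.50 in a wild-type library.

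The 2 arms of mir-200a could be compared within each library, since each had a mean of at least 5 reads. The 5p arm made up 27.7% ± 12.1 of the hairpin's reads in empty-plasmid libraries and 48.4% ± 8.66 in wild-type ones (SD, n = 3). It made up 32.0% ± 5.83 for m4 and 41.7% ± 2.59 for the belt deletion. The 5p to 3p ratio changed by a log2 of 1.12 for wild type against empty plasmid (SE 0.55, edgeR adjusted p = 0.121), which did not pass the threshold. It was 0.14 (SE 0.52) for m4 and 0.78 (SE 0.54) for the belt deletion against empty plasmid, and -0.98 (SE 0.52) for m4 against wild type. None of the 6 comparisons was called by edgeR. Of the 44 hairpins tested, 20.5% were called for wild type, 11.4% for m4 and 22.7% for the belt deletion against empty plasmid. Between the DROSHA forms 4.55% were called for m4 against wild type. For the belt deletion 13.6% were called against wild type, and 18.2% were called against m4. In counts simulated with a true log2 change of 1, near the value here, the test called 2 of 13 changed hairpins. That run had a lognormal noise of 0.3 and a median SE of 0.75, above the 0.55 here. A noise of 0.1 gave a median SE of 0.54 with a true change of 2, but a change of 1 was not simulated there. How often the test misses such a change at the precision of mir-200a is therefore not known. The arms of mir-200b were far from equal, with 2.88% of its 728 reads on the 5p arm.

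Other miRNAs with known roles in epithelial identity and its loss were set beside the family. Of a list of 14 miRNAs known as epithelial or as antagonists of epithelial-mesenchymal transition, 9 were tested. All 9 rose with wild type (median log2 5.48), 7 with m4 (3.14) and 9 with the belt deletion (4.74), and 8 fell from wild type to m4 (median -2.03). Over all 310 tested miRNAs 42.6%, 41.0% and 42.9% were called higher in the first 3 comparisons, and 106 were called lower with m4 than with wild type. All called miRNAs, of either direction, had a median log2 change of 4.23, 2.05 and 3.57 in those 3, and -2.15 for m4 against wild type. The highest values with wild type, 7.64 for miR-96-5p and 7.33 for miR-34a-5p, started from 0.48 and 0 mean scaled reads with the empty plasmid. miR-183-5p, of the miR-183/96/182 cluster of sensory and epithelial cells, went from 33.1 mean scaled reads with the empty plasmid to 1477 with wild type and 308 with m4. miR-203a-3p, which restrains stemness in skin, went from 4.16 to 146 and 43.2. miR-375-3p was at 2.26, 9.80 and 7.05, and its m4 value was not called (edgeR adjusted p = 0.0692). Under the other 4 library sizes 8 or 9 of the 9 rose with wild type and 4 to 8 fell from wild type to m4. Of all 310 tested miRNAs 123 to 137 were called higher with wild type than with the empty plasmid under those sizes. Called lower with m4 than with wild type were 92 under TMM, 97 with DESeq2 size factors and 60 with total reads. With the sum of the reference hairpins 87 were.

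Of 12 miRNAs known as mesenchymal or as promoters of the transition, 8 were tested, and 7 rose with wild type (median log2 5.23), 7 with m4 (2.06) and 7 with the belt deletion (4.66), beside the same 42.6%, 41.0% and 42.9% of all tested miRNAs. miR-21-5p, an abundant oncogenic miRNA, was at 2052 mean scaled reads with the empty plasmid, 80950 with wild type and 7446 with m4. The exception was miR-143-3p, a miRNA of smooth muscle and fibroblasts, at 133, 112 and 171 mean scaled reads. Its value for wild type was -0.25 (edgeR adjusted p = 0.630) and it was called lower under 3 of the other 4 library sizes, all but the sum of the reference hairpins. From wild type to m4, 6 of the 8 mesenchymal miRNAs fell (median log2 -2.82), where 106 of all 310 tested miRNAs were called lower. Under the other 4 library sizes 5 or 6 of the 8 fell, where 60 to 97 of all 310 tested miRNAs were called lower. The 5 miR-200 arms, with log2 values of 0.48 to 1.69 for wild type against empty plasmid, stood below all 9 epithelial miRNAs (1.97 to 7.64). They also stood below every tested mesenchymal miRNA except miR-143-3p, the lowest of the others being miR-9-5p at 1.77. With m4 the arms and the epithelial miRNAs overlapped, with miR-375-3p at 1.57 and miR-200b-3p at 1.69. The difference between the lists was not tested.

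**Figure D5:**
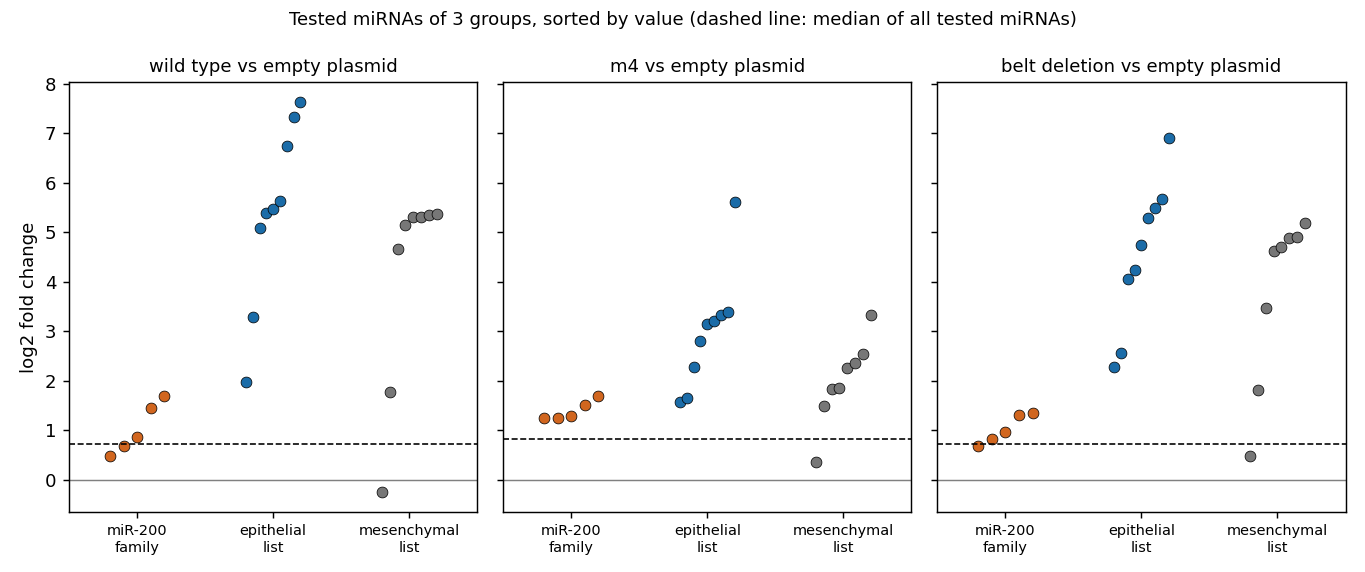
Log2 fold change against empty plasmid (y axis) of the tested miR-200 arms, epithelial miRNAs and mesenchymal miRNAs (x axis), each dot 1 miRNA, with the median of all tested miRNAs as a dashed line. With wild type the 5 miR-200 arms lie between 0.48 and 1.69 and the 9 epithelial miRNAs between 1.97 and 7.64.

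Markers of other cell types were looked at in the same libraries. Of 15 markers, 11 were measured and 4 tested. Their summed scaled reads were 216 to 293 for the empty plasmid and 482 to 705 for wild type, 331 to 639 for m4 and 571 to 788 for the belt deletion. Blood-cell miRNAs were at or near 0, with 3 reads of miR-451a, 1 of miR-142-5p and 7 of miR-150-5p in all 12 libraries. miR-126-3p, known from endothelium, rose from 9.44 to 393 mean scaled reads with wild type (log2 5.37). Of the other 3 tested markers miR-9-5p also rose (log2 1.77), so 2 of 4 were called higher with wild type. miR-143-3p (log2 -0.25, edgeR adjusted p = 0.630) and the line of miR-122-5p (log2 -0.69, edgeR adjusted p = 0.164) were not called. The reads listed for the liver miRNA miR-122-5p could not be told apart from those of miR-122b-3p. The part of these markers in the results was not tested. Among the fixed epithelial markers, miR-192-5p was at 26.6 mean scaled reads with wild type, miR-215-5p at 4.55 and miR-194-5p at 2.67.

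The miRNAs whose levels followed the family most closely were found over the 12 libraries, among 113 tested miRNAs outside the family with a mean of at least 50 scaled reads. By Pearson's r of log2(scaled reads + 1) with the summed 3p reads of the family they were miR-9-5p (0.89), miR-6847-5p (0.79), miR-659-5p (0.79), miR-573 (0.78) and miR-3182 (0.75), against a median of 0.49 over the 113. In RPM the same 5 were the closest. The libraries share their size factors, so these values describe the 12 libraries only. miR-9-5p, a neuronal miRNA also known to repress E-cadherin, was at 20.2 mean scaled reads in the empty-plasmid group, 69.1 for wild type, 71.9 for m4 and 72.1 for the belt deletion. It rose by 1.77 log2 units with wild type and by 1.82 with each mutant (edgeR adjusted p under 0.05 in each comparison). Among the members themselves, r over the 12 libraries was 0.92 between miR-200a-3p and miR-200b-3p, 0.88 between miR-200b-3p and miR-200c-3p and 0.53 between miR-200a-5p and miR-429.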

How the data were processed

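Small RNA of 12 libraries was analysed from 1 deposited table that gives raw counts of reads for each mature arm of each hairpin. The submitters' processing notes name Bowtie2, cutadapt and hg38; versions, the counter and the treatment of multiply fitting reads are not given in the sources used here. Per the labels' protocols, RNA was extracted with TRIzol, 19 to 24 nt RNA was cut from a 15% gel (10 µg of total RNA), and NEBNext libraries were made.

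Blank cells (42.7%) were read as 0. Lines of 1 mature name were collapsed to the fullest line. Names with equal reads (within 5 reads or 5%, over 120 reads in total) were merged, which joined 9 pairs; no member was affected. Size factors were the median ratio over those DROSHA-independent features that reached 20 reads in all libraries. Differences were tested with edgeR 4.0.16 (R 4.3.3, quasi-likelihood, robust), 1 fit of 12 libraries without covariates, filterByExpr (310 miRNAs kept), Benjamini-Hochberg adjustment and a call at adjusted p under 0.05. The SE is |log2 change| over the root of F. DESeq2 1.42.0, other library sizes, other filters, a replicate block and leaving out each library were alternatives. Arm ratios used edgeR on both arms with the library as a block, and both arms were given the library's total as library size. This was corrected after first results had been seen: with separate totals the test had called more hairpins and had given mir-200a the opposite sign to its reads. Member ratios used exact permutation with 0.5 reads added.

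Tested on simulated data for m4 against empty plasmid (299 miRNAs), edgeR called 26 of 28 miRNAs with a true log2 change of 1. Their median estimate was 1.33. It also called 9 of 143 unchanged ones, whose median estimate was 0.23, above 0. The source of this upward shift was not tested. The size factors rest on 5 features, and their error is not part of the printed SEs. The simulated spread was fixed and not taken from the miR-200 arms, so these counts are not a rate for those arms. The arm-ratio test, simulated for wild type against empty plasmid with a lognormal noise of 0.3, called 2 of 13 hairpins changed by a log2 of 1 (48 hairpins), 8 of 14 changed by 2 (49 hairpins) and 13 of 15 changed by 3 (53 hairpins). With a noise of 0.1, a milder setting added after the low recovery had been seen, it called 9 of 13 changed by 2 (47 hairpins) and 15 of 15 changed by 3 (51 hairpins). No unchanged hairpin was called in these 5 runs for that comparison.

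Named miRNAs are all arms of the 5 hairpins, members of the fixed lists, and the 5 miRNAs most correlated with the family. Examples from the lists were picked with their values known. The members and lists were chosen with earlier results of these data known. Same-numbered libraries did not deviate together (r -0.25 to 0.13 over 18 pairs), so the numbers were not taken as pairs. The limit given for a count of 0 covers counting error only, and reads carry no molecular identifiers. The SEs from edgeR rest on its estimate of the spread between libraries.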

Additional observations from a re-analysis of the deposited data

How the results depend on the processing

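The family's low depth (118 to 294 reads per library) and the choice of library size limit these results. The 2 calls for wild type against empty plasmid became 0 under TMM, 1 with DESeq2 size factors, 0 with total reads and 1 with a filter of at least 30 reads in at least 3 libraries. That filter left miR-200b-3p and miR-200c-3p to be tested, so its counts here and below are out of 2. The 5 calls for m4 against empty plasmid became 2, 1, 5 and 2 under the same settings and 3 with no filter. The 3 for belt deletion against empty plasmid became 0, 0, 0 and 2, and 2 with no filter. Over all 310 tested miRNAs, TMM, DESeq2 size factors and total reads called 125, 126 and 123 higher with wild type than with the empty plasmid. For m4 they called 98, 95 and 144 higher, and for the belt deletion 114, 115 and 109. Called lower were 88, 68 and 71 with wild type, 12, 12 and 3 with m4 and 47, 34 and 33 with the belt deletion. Counts over all miRNAs under the other filters are not given here. The m4 call of miR-200a-5p against empty plasmid was also lost in the DESeq2 test with the main size factors (DESeq2 adjusted p = 0.0590). It was lost too in a fit of only these 2 groups (edgeR adjusted p = 0.0687). The 0 calls for m4 against wild type became 2 under TMM, 1 with DESeq2 size factors and 4 with total reads. The 0 for belt deletion against m4 became 1 under TMM and 4 with total reads, each lower with the belt deletion. Of all 310 tested miRNAs, 54, 39 and 133 were higher with m4 than with wild type under TMM, DESeq2 size factors and total reads. In the same order 92, 97 and 60 were lower. Between belt deletion and m4, TMM called 28 lower and 71 higher with the belt deletion, and total reads 121 lower and 47 higher. Belt deletion against wild type gave 0 calls in every setting run. Leaving out 1 library gave 1 to 2 calls for wild type, 2 to 5 for m4 and 0 to 3 for the belt deletion against empty plasmid, 0 to 1 for belt deletion against m4, and 0 to 2 of the 5 ratios.

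With the replicate block the called arms numbered 2 for wild type, 5 for m4 and 2 for the belt deletion against empty plasmid, and 0 in the other comparisons; the ratios past the threshold went from 1 to 0. The labels do not say whether the numbers pair the samples, so it was not settled which of these fits is the better one.

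Values of opposite sign to the reported one, none of them called, were as follows. Under TMM, miR-200a-3p was at -0.10 for wild type and -0.12 for the belt deletion against empty plasmid, miR-200a-5p at -0.29 for belt deletion against m4 and miR-200c-3p at -0.32 for wild type. With DESeq2 size factors, miR-200a-5p was at -0.12 for belt deletion against m4 and miR-200c-3p at -0.18 for wild type. With total reads, miR-200a-3p was at -0.12 for wild type, -0.082 for belt deletion against empty plasmid and 0.034 against wild type. In that setting miR-200a-5p was at 0.61 for m4 against wild type; for belt deletion against m4 it was at -0.93, miR-200c-3p at -0.34 for wild type and miR-429 at 0.0039 for belt deletion against wild type. The sum of the reference hairpins gave miR-200a-5p -0.28 for belt deletion against m4, and a fit of only the 2 groups gave miR-200a-3p 0.022 for belt deletion against wild type. Leaving out 1 library moved belt deletion against wild type across 0 for miR-200a-3p (-0.30 to 0.23), miR-200b-3p (-0.91 to 0.18), miR-200c-3p (-0.27 to 0.76) and miR-429 (-0.24 to 0.14), and belt deletion against m4 for miR-200a-5p (-0.31 to 0.40). The stricter filter for arm ratios left no value for mir-200a. The causes of these changes of sign were not tested.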
